A study of Mus musculus with 30 samples.

Results

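Small leucine-rich proteoglycans (SLRPs) are secreted matrix proteins built around a run of leucine-rich repeats, and many of them carry chondroitin, dermatan or keratan sulfate chains. The members described here were taken by gene symbol from the family and are 9 of the 32386 genes that the deposited tables hold. They are decorin (Dcn), biglycan (Bgn) and asporin (Aspn) of class I, lumican (Lum), fibromodulin (Fmod), prolargin (Prelp) and osteomodulin (Omd) of class II, osteoglycin (Ogn) of class III and podocan (Podn) of class V. SLRPs sit on collagen fibrils and set how these grow and pack, and several of them also hold growth factors such as TGF-β in the matrix. Decorin, lumican and biglycan are widely used as marker genes of fibroblasts, including those of the gut wall.

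The study sorted mesenchymal stromal cells from the small intestine (SI) and the colon of untreated C57BL/6Nrj mice aged 8 to 10 weeks, and measured the RNA of each sorted population by bulk RNA-seq. Each of the 10 populations had 3 libraries, 30 in all, and cells that were dead or stained for Lineage markers, CD31, BP3, EpCAM or high NCAM were left out of every gate. From the SI lamina propria came pericytes (PDGFRα-, ESAM-1+ and PDPN-), smooth muscle cells (SMC, PDGFRα-, ESAM-1+ and PDPN+), CD34+ fibroblasts (FB) that the labels describe as Igfbp5+ FB together with CD81+ FB (ESAM-1-, PDGFRα intermediate, CD34+), Fgfr2+ FB (the same gate but CD34-) and PDGFRαhi FB (ESAM-1-, PDGFRα high, CD34-). From the colonic lamina propria came pericytes by the same gate as in the SI, CD81+ FB (ESAM-1-, PDPN intermediate, CD34+, CD90-), CD90+ FB (ESAM-1-, PDPN high, CD34+, CD90+), Fgfr2+ FB (ESAM-1-, PDPN high, CD34+, CD90-) and PDGFRαhi FB (ESAM-1-, PDPN+, CD34-). For fibroblasts the gates differed with the tissue, so gate and tissue cannot be told apart in those comparisons. The labels speak of individual mice and the methods of independent experiments, and the paper speaks of sorting both tissues of the same mice. Which libraries share a mouse is not given in the sources used here, the tests treat libraries as independent, and p-values measure the spread between these libraries.

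Library depth, the sum of estimated counts, ran from 2245052 to 19096945 with a median of 9601683. The shallowest library was replicate 3 of SI Fgfr2+ FB, and the other libraries of that population held 10286761 and 15098412 counts. The share of a library's TPM on its top transcript also differed, from 14.8 to 55.9% over all libraries. It was 55.5, 55.9 and 53.8% in SI CD34+ FB, 27.8, 32.0 and 19.7% in SI Fgfr2+ FB and 49.2, 51.1 and 14.8% in SI PDGFRαhi FB. In SMC it was 46.3, 34.6 and 23.8% and in colon CD81+ FB 20.7, 47.6 and 39.3%, and its part in the results was not tested. Levels are given as CPM, which divides counts by library size after TMM normalization, with the values of a population in the order of replicates 1, 2 and 3, and levels of different genes are compared only as CPM per kb of effective transcript length. In bulk RNA, fewer cells that express a gene and less RNA per cell cannot be told apart.

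The labels were checked against genes that mark cell types. The 6 pericyte markers, led by Rgs5, summed to 38297, 53216 and 32520.5 CPM in the libraries of colon pericytes and to 52505, 35301 and 44319 CPM in those of SI pericytes. The 6 smooth muscle markers, led by Myh11, summed to 21515, 17478 and 21100.3 CPM in SMC, against 10245, 11424 and 11050.3 CPM in colon pericytes and 4664, 3135 and 3386 CPM in SI pericytes. Pericytes and SMC thus each held the highest sums of their own list, and CD90+ FB and Fgfr2+ FB had no list of their own. Of 6 sorting genes, the most abundant by mean was Fgfr2 in SI Fgfr2+ FB (1646 CPM) and SMC (332 CPM). It was Thy1 (CD90) in SI and colon pericytes (221 and 142 CPM), and Pdgfra in colon CD90+ FB and colon Fgfr2+ FB (655 and 725 CPM). The 4 fibroblast markers, led by Col1a1 in most populations, summed to between 8512 and 53755 CPM in every fibroblast library, and to 3767, 3248 and 7702 CPM in SMC. In pericytes the same sum was 2491, 2408 and 1710.2 CPM (SI) and 1161, 1209.9 and 1444 CPM (colon). The 5 PDGFRαhi markers, led by Pdgfra, summed to 10485, 11358 and 10719.8 CPM in SI PDGFRαhi FB and to 6118, 6489 and 6065 CPM in colon PDGFRαhi FB. The 5 markers of CD81+ adventitial fibroblasts, led by Grem1, summed to 3091, 3234 and 2838 CPM in colon CD81+ FB and to 1933, 1546 and 1369 CPM in SI CD34+ FB.

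Markers of cell types outside the sorted populations were low, apart from those of interstitial cells of Cajal. The 5 endothelial markers, led by Pecam1, summed to at most 86.4 CPM except in replicate 3 of SMC (179.5 CPM), and Cldn5 was at 0 in all libraries of 8 of the 10 populations. The 5 immune markers summed to at most 29.9 CPM outside replicate 2 of SI Fgfr2+ FB (85.5 CPM) and replicates 2 and 3 of colon pericytes (57.3 and 61.6 CPM). The 5 epithelial markers, led by Vil1 in most populations, stayed at or below 5.53 CPM except in replicate 2 of colon pericytes (32.5 CPM) and of SI pericytes (28.9 CPM), with Krt8 at 0 in 9 of the 10 populations. The 4 mesothelial markers reached at most 17.0 CPM, the 4 erythroid markers 3.65 CPM and the 4 glial markers 28.1 CPM, in replicate 1 of SI pericytes. The 3 markers of interstitial cells of Cajal were highest in the pericyte libraries, at 1157, 584 and 742 CPM in the SI and 807, 901 and 687 CPM in the colon, led by Ano1. Whether pericytes or other cells made these transcripts was not tested.

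Marker sums also differed among the fibroblasts. Smooth muscle markers summed to 2080, 3395 and 2372 CPM in SI PDGFRαhi FB, 1245, 1136 and 2119 CPM in colon PDGFRαhi FB, 689, 857 and 481 CPM in SI Fgfr2+ FB and 212, 225 and 440 CPM in colon Fgfr2+ FB. They summed to 264, 34.9 and 36.9 CPM in colon CD81+ FB, 115, 141 and 153 CPM in colon CD90+ FB and 135, 113 and 141 CPM in SI CD34+ FB. The markers of interstitial cells of Cajal summed to 476, 427 and 505 CPM in SI PDGFRαhi FB, 230, 291 and 238 CPM in colon PDGFRαhi FB, 87.6, 129 and 127 CPM in SI Fgfr2+ FB and at most 125 CPM in the other fibroblast libraries. The PDGFRαhi markers summed to between 781 and 1494 CPM in fibroblast libraries other than PDGFRαhi FB. In each comparison between fibroblast populations the libraries of some marker sums did not overlap, and whether these genes are made by the sorted cells or by others was not tested.

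Summed over the 9 members, SLRP RNA was highest in colon CD81+ FB (15494 ± 3621 CPM per kb, SD, n = 3) and SI CD34+ FB (15383 ± 1962 CPM per kb). It was lowest in pericytes, at 1976 ± 243 CPM per kb in the SI and 1583 ± 401 CPM per kb in the colon. In between, the sum ran down from colon CD90+ FB (10820.0 CPM per kb), colon Fgfr2+ FB (10698.5), SI Fgfr2+ FB (8400.1), SMC (7398), SI PDGFRαhi FB (6382) and colon PDGFRαhi FB (5569.6). SMC libraries were uneven, and replicate 3 stood far above the others with 12881 CPM per kb against 4337 and 4978. Dcn and Bgn together made up most of the sum in every population, and the balance between them differed: Dcn took 57.9 ± 8.43% in colon CD81+ FB and 4.75 ± 3.07% in SI pericytes, whereas Bgn took 28.8 ± 6.23% and 69.1 ± 7.17%. Prelp took 20.0 ± 4.51% in SI pericytes, 18.1 ± 4.75% in colon pericytes and 18.3 ± 5.77% in SI PDGFRαhi FB. Ogn reached 10.4 ± 0.253% in colon PDGFRαhi FB, and Podn reached 11.9 ± 1.42% in SMC. Per-kb levels of Bgn lean on a short transcript, Bgn-208 of 548 bases, which held 24.4% of the Bgn count in SMC and 9.88% in SI CD34+ FB. Its share in pericytes is not given here. Bgn read 1373 CPM per kb and 1283 CPM in SI pericytes, and 918 CPM per kb and 1229 CPM in colon pericytes. The per-kb share of Bgn and the per-kb sums in pericytes thus carry the same limit.

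**Figure D1:**
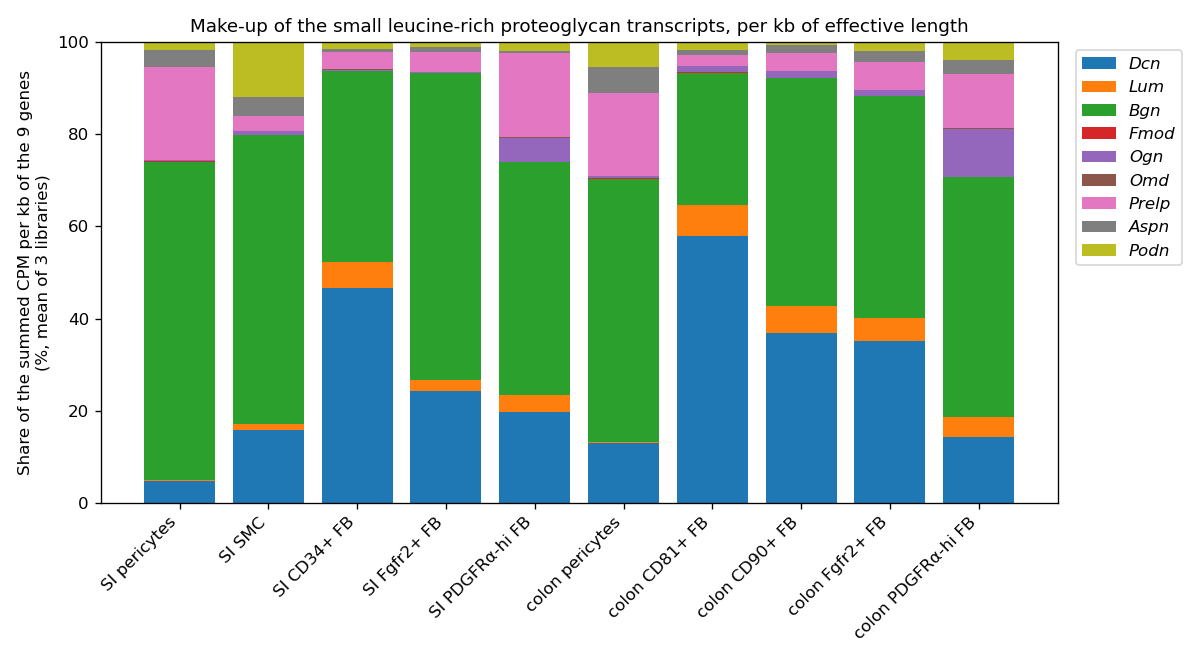
Share of each member in the summed SLRP level (CPM per kb, percent, mean of 3 libraries) in the 10 populations, as stacked bars. Dcn and Bgn fill most of each bar, Prelp is broad in pericytes and SI PDGFRαhi FB, Ogn in colon PDGFRαhi FB (10.4%) and Podn in SMC (11.9%).

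Decorin binds fibrils of collagen type I and TGF-β. By the ratio of its highest to its lowest population mean, it spanned the widest range of the abundant members after Lum and Ogn. The libraries of colon CD81+ FB held 20178, 15156 and 9585 CPM of Dcn and those of SI CD34+ FB 14004, 11278 and 10210.3 CPM. Colon CD90+ FB followed with 4838, 7501 and 6915 CPM of Dcn, colon Fgfr2+ FB with 5772, 5524 and 6988 CPM and SI Fgfr2+ FB with 3701, 3269.8 and 3007 CPM. The leading pair overlapped each other and so did the next pair, but neither colon CD81+ FB nor SI CD34+ FB overlapped colon CD90+ FB, and SI Fgfr2+ FB lay below every library above it. Dcn then stood at 1883, 1976 and 2424 CPM in SI PDGFRαhi FB, at 1216, 1916 and 1441 CPM in SMC and at 1297, 1121 and 1429.9 CPM in colon PDGFRαhi FB, and each of these overlapped the next and none reached SI Fgfr2+ FB. Pericytes were lowest, with 298, 503 and 221 CPM of Dcn in the colon and 68.8, 143 and 259.5 CPM in the SI, and these overlapped.

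Biglycan, a chondroitin or dermatan sulfate proteoglycan that also signals through Toll-like receptors, was high in all fibroblasts. Bgn read 9331, 10002 and 8533 CPM in SI CD34+ FB, 7448, 8845 and 6411 CPM in SI Fgfr2+ FB, 6084, 8324 and 8183 CPM in colon CD90+ FB and 6077, 6615 and 8954 CPM in colon Fgfr2+ FB. It read 7353, 5213 and 6048 CPM in colon CD81+ FB, 3418, 3167 and 8096 CPM in SMC, 4606, 4937 and 4714 CPM in SI PDGFRαhi FB and 3782, 4309.6 and 4969 CPM in colon PDGFRαhi FB. Each of these neighbours overlapped, and replicate 3 of SMC was high within its population. Both pericyte populations lay below all of them, with 1152, 1377 and 1319 CPM of Bgn in the SI and 980.4, 1394 and 1314 CPM in the colon.

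Asporin, which lacks the attachment sites for glycosaminoglycan chains and binds TGF-β and collagen, had a different order, with the highest mean in SMC through replicate 3 of that population. Aspn read 359.9, 509 and 1176 CPM in SMC, 662, 403 and 615 CPM in colon Fgfr2+ FB, 245, 356 and 569 CPM in colon CD90+ FB, 289.7, 432 and 389 CPM in colon PDGFRαhi FB and 284, 255 and 444 CPM in colon CD81+ FB. Lower down it read 182, 143 and 275 CPM in SI CD34+ FB, 115, 183 and 286 CPM in SI Fgfr2+ FB, 193, 179 and 182 CPM in colon pericytes and 77.4, 181 and 240.0 CPM in SI pericytes. SI PDGFRαhi FB came last with 30.01, 25.0 and 77.8 CPM of Aspn. Every population overlapped the next in this order, and the bottom pair met only between replicate 3 of SI PDGFRαhi FB and replicate 1 of SI pericytes.

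Lumican, a keratan sulfate proteoglycan of collagen fibrils, followed decorin closely. Lum stood at 2312, 1921 and 1511 CPM in colon CD81+ FB, 2069, 1364 and 1499 CPM in SI CD34+ FB, 907, 1142 and 1505 CPM in colon CD90+ FB and 742, 784 and 1428 CPM in colon Fgfr2+ FB, each overlapping the next. It stood at 467, 326 and 590.3 CPM in colon PDGFRαhi FB, 412, 331 and 579 CPM in SI PDGFRαhi FB and 446, 320.2 and 406 CPM in SI Fgfr2+ FB, which overlapped one another and no library above. SMC lay apart with 164, 129 and 201 CPM of Lum. Pericytes held almost none, with 1.94, 3.78 and 10.4 CPM in the colon and 3.43, 2.40 and 9.47 CPM in the SI.

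Prolargin, which anchors basement membranes to the underlying connective tissue, was the most even of the abundant members. Prelp read 4161, 4939 and 2070.3 CPM in SI PDGFRαhi FB, 1998, 1825 and 2144 CPM in colon PDGFRαhi FB, 1679.6, 2475 and 1609 CPM in SI CD34+ FB and 1173, 2353 and 2175 CPM in colon Fgfr2+ FB. SI pericytes followed with 1489.6, 1174 and 933 CPM of Prelp, above colon CD81+ FB (1079, 1363 and 906 CPM), colon CD90+ FB (912, 1304 and 983 CPM) and SI Fgfr2+ FB (1368, 1162 and 591 CPM). Colon pericytes with 872, 857 and 645 CPM and SMC with 566, 575 and 776 CPM of Prelp closed the order. Each population overlapped the next throughout.

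Fibromodulin and osteomodulin, both keratan sulfate proteoglycans, held few counts in several populations. Fmod counts in single libraries ran from 0 to 322, the highest in replicate 2 of SI pericytes (40.7 CPM), whose other libraries held 0 and 18 counts. Among populations with Fmod in every library, the mean was highest in colon Fgfr2+ FB, with 206, 96 and 98 counts (21.3, 9.37 and 10.9 CPM), and SI CD34+ FB held 31, 24 and 38 counts. SI Fgfr2+ FB had 0, 0 and 3 counts of Fmod and SMC 0, 0 and 1. Omd was highest in colon PDGFRαhi FB (9.93, 6.76 and 7.33 CPM) and colon CD81+ FB (3.59, 9.65 and 5.16 CPM), ahead of SI CD34+ FB (5.43, 3.92 and 1.18 CPM) and SI PDGFRαhi FB (2.28, 1.97 and 3.56 CPM). Colon Fgfr2+ FB held 23, 11 and 4 counts of Omd, colon CD90+ FB 15, 4 and 7, SMC 4, 2 and 0, colon pericytes 0, 3 and 0, SI Fgfr2+ FB 0, 0 and 1, and SI pericytes none. Every neighbour in the Fmod order and in the Omd order overlapped the next. For these genes, where a population held 1 to 3 counts the ratio of pooled CPM is given with a 95% interval, and where it held none a lower bound against 3 counts over the population, and both cover counting error only.

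Osteoglycin, also called mimecan, is a class III member that takes part in collagen fibril assembly. Its population mean was highest in PDGFRαhi FB of the colon, followed by PDGFRαhi FB of the SI. Colon PDGFRαhi FB held 1183, 1379 and 1519 CPM of Ogn, above every other library of the study. SI PDGFRαhi FB followed with 499, 832 and 1041 CPM, colon CD81+ FB with 556, 451 and 407 CPM, colon CD90+ FB with 285, 353 and 538 CPM and colon Fgfr2+ FB with 460.4, 203 and 313 CPM, each overlapping the next. Below them Ogn read 185, 105 and 98.9 CPM in SI CD34+ FB, 51.6, 102 and 209 CPM in SMC, 31.3, 53.4 and 70.9 CPM in SI Fgfr2+ FB, 3.76, 35.9 and 15.8 CPM in colon pericytes and 7.72, 10.9 and 19.3 CPM in SI pericytes. SI CD34+ FB lay below all libraries of colon Fgfr2+ FB, and from there down neighbours overlapped.

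Podocan, which binds collagen type I and restrains the growth of smooth muscle cells, was highest in SMC. Podn read 1608, 1538 and 3742 CPM there, and no other library of the study reached these values. SI CD34+ FB (560.4, 865 and 513 CPM), colon CD81+ FB (418, 580.1 and 930.3 CPM), colon PDGFRαhi FB (529, 686 and 546 CPM) and colon Fgfr2+ FB (507, 478 and 566 CPM) held similar levels of Podn and overlapped. The rest ran through SI PDGFRαhi FB (297, 524 and 218 CPM), SI Fgfr2+ FB (284, 305 and 135 CPM), colon pericytes (158, 351 and 156 CPM) and colon CD90+ FB (91.5, 314 and 229 CPM) to SI pericytes (6.86, 89.9 and 148 CPM), again with overlap at each step.

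**Figure D2:**
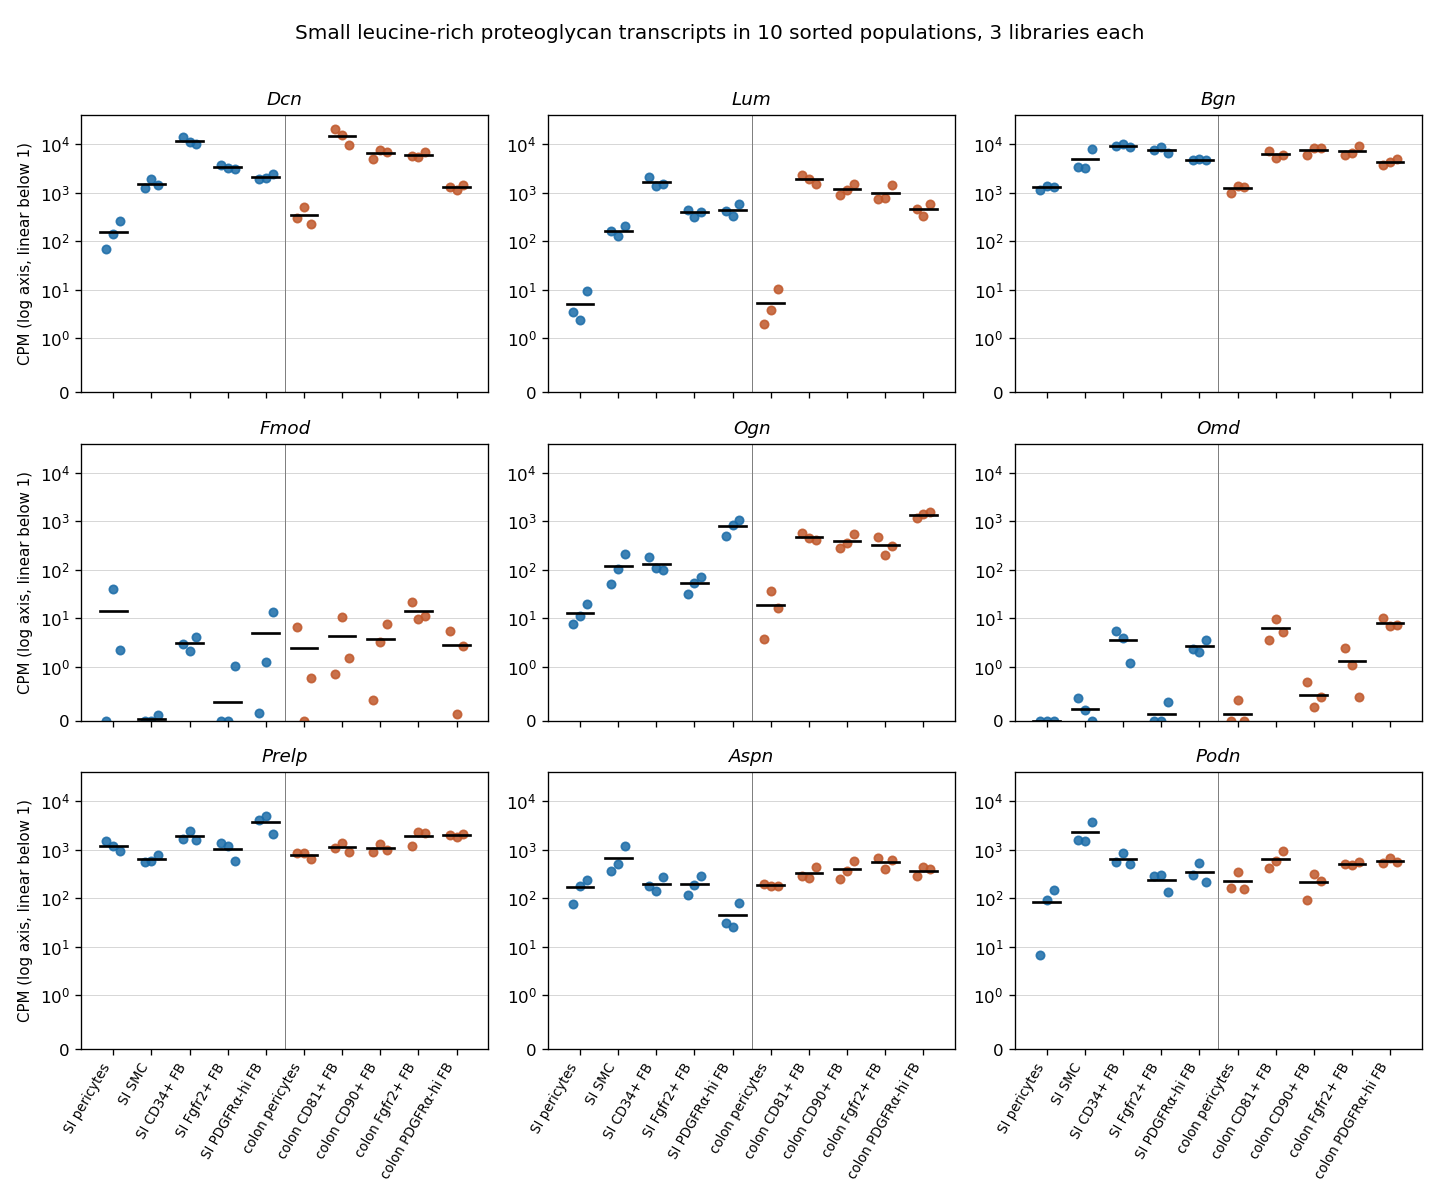
CPM of each of the 9 members in each library (points, n = 3 per population, bar at the mean), on a log axis that is linear below 1, with SI populations in blue and colon populations in orange. Podn peaks in SMC, as does the mean of Aspn through 1 library, Ogn peaks in PDGFRαhi FB, and Lum and Dcn are lowest in pericytes.

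Fibroblasts of the SI carried far more Lum and Dcn RNA than the mural cells (pericytes and SMC) of the same tissue. The mean of the 3 fibroblast populations lay above the mean of the 2 mural populations by a log2 fold change of 4.49 for Lum (SE 0.35, edgeR adjusted p = 2.7e-10) and 3.15 for Dcn (SE 0.25, edgeR adjusted p = 2.6e-10). Ogn was higher as well, by 2.15 (SE 0.37, edgeR adjusted p = 0.00014). Tests used edgeR's quasi-likelihood method with Benjamini-Hochberg adjustment over 17564 genes, and a gene counts as called where the adjusted p is below 0.05 and the log2 fold change lies beyond 1.5 either way. All 9 members passed the filter on low counts. By this rule 4 of the 9 members were called, all higher in fibroblasts, against 9.13% of all genes tested. The members' median log2 fold change was 1.47, against 0.03 over all genes. Only the Lum libraries did not overlap between the sides, since Dcn and Ogn in SMC reached into the fibroblast range. How many of all genes had libraries without overlap is not given for any comparison here.

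The fourth called member of that comparison, Omd (edgeR adjusted p = 0.034), rests on few counts, 6 in SMC and 0 in SI pericytes. SI CD34+ FB held at least 25.0-fold more Omd than SI pericytes and SI PDGFRαhi FB at least 16.9-fold more. The Omd call was lost without any 1 of 7 libraries, among them each replicate of SI pericytes (edgeR adjusted p = 0.052, 0.059 and 0.053), replicates 2 and 3 of SMC (0.054 and 0.058), replicate 1 of SI CD34+ FB (0.054) and replicate 3 of SI Fgfr2+ FB (1.00). It was also lost with no filter on low counts (edgeR adjusted p = 0.061) and in a fit of the SI libraries alone (0.072), over a range of 0.0077 to 0.072 in the settings other than leaving out a library. Bgn passed the p threshold and missed the fold, at 1.47 (SE 0.18, edgeR adjusted p = 5.7e-07), and it passed both without replicate 3 of SMC (1.76) or replicate 3 of SI Fgfr2+ FB (1.505). Prelp stood at 1.16 (SE 0.21). Aspn went the other way at -1.49 (SE 0.30, edgeR adjusted p = 0.00075), just short of the fold, and passed it with DESeq2 (-1.51), with RLE scaling (-1.51), with a stricter filter (-1.52) and without single libraries, replicate 1 of SI pericytes (-1.66), replicate 1 or 2 of SMC (-1.64 and -1.58), replicate 3 of SI CD34+ FB (-1.59), of SI PDGFRαhi FB (-1.72) or of SI Fgfr2+ FB (-1.62). Podn did not separate the sides (-0.20, SE 0.38). DESeq2 called 12.3% of all genes in this comparison.

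Within the mural cells of the SI, SMC held more of almost every abundant SLRP than pericytes did. The log2 fold change of SMC over pericytes was 3.28 for Dcn (SE 0.36, edgeR adjusted p = 2.4e-07), 1.93 for Bgn (SE 0.27, 9.2e-06), 2.04 for Aspn (SE 0.48, 0.0055), 4.99 for Lum (SE 0.53, 1.1e-07), 3.25 for Ogn (SE 0.58, 0.00028) and 4.81 for Podn (SE 0.70, 1.6e-05). The libraries of all 6 genes were separate between SMC and pericytes. Prelp pointed the other way at -0.91 (SE 0.32, edgeR adjusted p = 0.068), with every pericyte library above every SMC library. In all, 7 of the 9 members were called, 6 higher and 1 lower, against 10.2% of all genes, with a members' median of 3.25 (2.04 with populations without a count set to the 3-count floor) against 0 over all genes. The called lower member was Fmod (edgeR adjusted p = 0.028), at 475 times the pooled CPM in pericytes (95% interval 84.7 to 18820.3), and 322 of its 340 pericyte counts came from 1 library.

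The calls of Bgn, Aspn and Fmod between SMC and SI pericytes lean on single libraries, and folds of other members moved as well. Without replicate 3 of SMC, the library highest in Podn, Aspn and Bgn, 4 members were called, as Bgn moved to 1.42 and Aspn to 1.44 (edgeR adjusted p = 0.069), and Ogn moved to 2.66. Without replicate 3 of SI pericytes Lum moved to 5.83 and Podn to 5.56. The Fmod call was lost without replicate 2 of SI pericytes (edgeR adjusted p = 0.19) and without replicate 1, 2 or 3 of SMC (0.092, 0.1001 and 0.069). In a fit of these 6 libraries alone 3 members were called, against 2.85% of the genes tested there. Bgn (edgeR adjusted p = 0.051), Ogn (0.062) and Aspn (0.12) were not called in that fit, and Fmod and Omd did not pass its filter. Over the settings other than leaving out a library the adjusted p reached from 3.1e-09 to 0.051 for Bgn, 4.4e-07 to 0.062 for Ogn and 0.00051 to 0.12 for Aspn. Replicate 3 of SMC also held the largest sums of pericyte markers (7336 CPM, against 4255 and 3932), of fibroblast markers (7702 CPM) and of endothelial markers (179.5 CPM) in its population. Its top transcript took 23.8% of TPM, against 46.3 and 34.6% in replicates 1 and 2. The sum of fibroblast markers was higher in SMC than in SI pericytes in all libraries, and the part of these lists in the result was not tested. Omd, with 4, 2 and 0 counts in SMC and none in SI pericytes, was not called (edgeR adjusted p = 0.16).

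Colonic fibroblasts stood above colonic pericytes in most members. The mean of the 4 fibroblast populations exceeded pericytes by a log2 fold change of 3.94 for Dcn (SE 0.35, edgeR adjusted p = 9.4e-10), 2.33 for Bgn (SE 0.24, 2.6e-08), 7.53 for Lum (SE 0.57, 3.9e-11) and 4.86 for Ogn (SE 0.59, 3.3e-07). In these 4 genes, and in Prelp and Aspn, every fibroblast library lay above every pericyte library. With Omd, 5 of the 9 members were called, all higher in fibroblasts, against 16.0% of all genes, with a members' median of 2.33 against -0.01 over all genes. The fold of Lum was 8.46 without replicate 3 of colon pericytes and that of Ogn 5.76 without replicate 2. Prelp (0.88, SE 0.27, edgeR adjusted p = 0.021) and Aspn (1.13, SE 0.40, edgeR adjusted p = 0.047) passed the p threshold and not the fold. Podn stood at 1.02 (SE 0.51, edgeR adjusted p = 0.17). Sums of pericyte, smooth muscle and Cajal-cell markers were lower in colonic fibroblasts than in colon pericytes without overlap. Smooth muscle markers reached at most 2119 CPM in these fibroblasts, against at least 10245 CPM in the pericytes. Fibroblast and PDGFRαhi markers were higher in the fibroblasts without overlap, and the part of all these lists in the result was not tested.

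Omd in the colon was concentrated in the PDGFRαhi and CD81+ fibroblasts. Against the 3 counts of colon pericytes, pooled CPM was 83.6 times as high in colon PDGFRαhi FB (95% interval 28.2 to 409), 66.6 times in colon CD81+ FB (22.5 to 325), 13.6 times in colon Fgfr2+ FB (4.33 to 69.1) and 5.06 times in colon CD90+ FB (1.55 to 26.1). The Omd call for all colonic fibroblasts (fitted log2 fold change 4.22, edgeR adjusted p = 0.033) was lost without replicate 1 or replicate 3 of colon pericytes (3.67 and 3.59, edgeR adjusted p = 0.11 and 0.11). It was also lost with no filter on low counts (4.25, edgeR adjusted p = 0.056, over a range of 0.00089 to 0.056 in such settings). Without replicate 2, which held all 3 counts of colon pericytes, Omd was called (edgeR adjusted p = 0.0083).

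Genes around the SLRPs were counted by list for fibroblasts over mural cells, beside 9.13% of all genes called in the SI and 16.0% in the colon. Of 16 collagens and collagen-processing genes, 6 were called higher in SI fibroblasts and none lower, with a median log2 fold change of 1.44 against 0.03 over all genes, and they included Col14a1 at 4.80 and Col1a2 at 2.24. In the colon 11 of the 16 were called higher in fibroblasts, led by Col12a1 (5.52), Col1a1 (4.15) and Col3a1 (3.53), with a median of 2.79 (2.495 with genes at 0 counts set to the 3-count floor) against -0.01 over all genes. Of 21 genes that build chondroitin and dermatan sulfate, 2 were called higher in SI fibroblasts, Ust (4.47) and Chpf (1.62), and in the colon 3 were higher, among them Chst15 (2.90) and Dsel (2.72), and Csgalnact1 was lower (-3.20). Of 12 receptors and ligands bound by SLRPs, 5 were higher in SI fibroblasts, led by Ccn4 (5.36), Tlr2 (4.13) and Bmp4 (2.90), with Met lower (-3.54), and 4 were higher in colonic fibroblasts, led by Bmp4 (5.05), Ccn4 (3.08) and Lrp1 (1.73). Of 5 keratan sulfate genes, Chst1 was lower in SI fibroblasts (-2.65), whereas in the colon Chst1 was higher (2.501) and B3gnt2 lower (-2.87). Of 17 other proteoglycans, 3 were higher in SI fibroblasts, among them Vcan (4.57) and Gpc1 (2.63), and in the colon 3 were higher and 3 lower, led by Vcan (5.52) and by Cspg4 (-4.29) among genes detected in all populations. Of 7 other SLRP genes none was called in the SI, where 0 genes of that list passed edgeR's adjusted p with the fold, and Optc was lower in colonic fibroblasts (-2.27). In the order of chondroitin and dermatan sulfate genes, receptors and ligands, keratan sulfate genes, other proteoglycans and other SLRP genes, list medians were 0.40 (0.44 with the floor), 0.71, 0.36, 0.19 and 0.37 in the SI and 0.80, 0.82, 1.33, 0.502 and -0.61 in the colon.

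SMC against SI pericytes gave mixed directions in the same lists, beside 10.2% of all genes called, or 2.85% in a fit of these 6 libraries alone, where the lists were not counted. Of the 16 collagen genes, Col12a1 was higher in SMC (2.73) and Pcolce (-2.18) and Col14a1 (-1.71) were lower. Among the 12 receptors and ligands Met (7.14), Bmp4 (4.51) and Igf1r (2.23) were higher and Tgfb2 lower (-3.65). Of the 21 chondroitin and dermatan sulfate genes 2 were higher, Chst15 (2.40) and Chst7 (at least 14.1-fold, with no count in SI pericytes), and of the 5 keratan sulfate genes B4galt1 was lower (-2.16). Of the 17 other proteoglycans 3 were higher, Gpc2 (at least 124-fold), Gpc5 (79.1 times, 95% interval 21.6 to 657) and Vcan (5.11), and 4 were lower, led by Gpc3 (-4.42), Agrn (-2.88) and Sdc3 (-2.75). Of the 7 other SLRP genes Optc was higher (4.48) and Ecm2 lower (-1.59). The medians of the 6 lists, in the order named here, were 0.28 (0.20 with the floor), 0.18, 0.19 (0.17), -0.55, 0.17 and -0.67 (-0.68), against 0 over all genes.

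Among SI fibroblasts, the CD34+ population stood out for Dcn and Lum. Against Fgfr2+ FB, its log2 fold change was 1.83 for Dcn (SE 0.34, edgeR adjusted p = 0.0031) and 2.07 for Lum (SE 0.46, edgeR adjusted p = 0.013), and these 2 of the 9 members were called, against 1.21% of all genes, with a members' median of 1.42 against 0.02. How many of all genes had separate libraries is not given here. The libraries of 7 members were separate, all with CD34+ FB above. Besides Dcn and Lum these were Prelp (0.88, SE 0.32), Ogn (1.33, SE 0.54), Podn (1.42, SE 0.61), Fmod, at 28.1 times the pooled CPM (95% interval 9.31 to 139), and Omd, at 102 times (18.0 to 4075), of which only Omd was called in another setting, by DESeq2 (adjusted p = 0.0020, over a range of 0.0020 to 0.20 in such settings). The Lum call was lost without replicate 1 of SI CD34+ FB (1.80, edgeR adjusted p = 0.11) and without replicate 1, 2 or 3 of SI Fgfr2+ FB (2.18, 1.95 and 2.101, edgeR adjusted p = 0.053, 0.093 and 0.056). DESeq2 called 3.40% of all genes in this comparison. Bgn (0.30, SE 0.26) and Aspn (0.04, SE 0.47) differed by less than their errors allow to tell apart. Sums of pericyte, fibroblast and CD81+ markers were higher in CD34+ FB without overlap, those of smooth muscle, PDGFRαhi, endothelial and Cajal-cell markers lower, and their part in the result was not tested.

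Against PDGFRαhi FB, SI CD34+ FB held more Dcn, Lum and Aspn and less Ogn. The log2 fold change was 2.498 for Dcn (SE 0.35, edgeR adjusted p = 2.0e-05), 2.17 for Aspn (SE 0.49, 0.0061), 1.90 for Lum (SE 0.45, 0.011) and -2.61 for Ogn (SE 0.56, 0.0042). These were 4 of the 9 members, against 3.22% of all genes, and their libraries did not overlap. The members' median was 0.90 against 0 over all genes. Bgn was higher by 0.97 (SE 0.26, edgeR adjusted p = 0.033), short of the fold, also without overlap. The Lum call was lost without replicate 1 of SI CD34+ FB (1.69, edgeR adjusted p = 0.073) and without replicate 1 or 2 of SI PDGFRαhi FB (1.85 and 1.73, edgeR adjusted p = 0.068 and 0.091). Aspn lost its call without replicate 1 or 2 of SI PDGFRαhi FB (1.96 and 1.89, edgeR adjusted p = 0.062 and 0.068) and moved to 2.86 without replicate 3. Smooth muscle markers differed too, at 135, 113 and 141 CPM in SI CD34+ FB against 2080, 3395 and 2372 CPM in SI PDGFRαhi FB, with 2 of 6 called lower. Sums of PDGFRαhi and Cajal-cell markers were also lower in CD34+ FB without overlap, those of pericyte, fibroblast, CD81+ and immune markers higher, and the part of all these in the result was not tested.

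Fgfr2+ FB and PDGFRαhi FB of the SI, which shared a low Lum level, parted on Ogn, Prelp and Aspn. Fgfr2+ FB were lower in Ogn by a log2 fold change of -3.93 (SE 0.60, edgeR adjusted p = 9.6e-05) and in Prelp by -1.84 (SE 0.33, 0.00091), and higher in Aspn by 2.14 (SE 0.49, 0.010). Those 3 of the 9 members were called, against 2.52% of all genes. The libraries of 6 members were separate, and how many of all genes had separate libraries is not given here. The members' median was -0.52 against -0.01 over all genes. Lum stood at -0.17 (SE 0.44) and Dcn at 0.67 (SE 0.33, edgeR adjusted p = 0.42). The Aspn call was lost without replicate 1 or 2 of SI PDGFRαhi FB (1.92 and 1.85, edgeR adjusted p = 0.085 and 0.094), without replicate 3 of SI Fgfr2+ FB (1.75, 0.074) and in a fit of these 6 libraries alone (2.204, 0.062, over a range of 0.00036 to 0.062 in the settings other than leaving out a library), and the fold was 2.82 without replicate 3 of SI PDGFRαhi FB. Pooled Omd was 69.3 times as high in PDGFRαhi FB as in Fgfr2+ FB (95% interval 12.1 to 2771), which was called by DESeq2 (adjusted p = 0.0040, over a range of 0.0040 to 0.20 in such settings) and, with edgeR, without replicate 3 of SI Fgfr2+ FB (adjusted p = 0.042), the library with the only Omd count. DESeq2 called 5.23% of all genes in this comparison. Pooled Fmod was 39.5 times as high (13.3 to 194), from 1, 22 and 119 counts in SI PDGFRαhi FB, and was not called (edgeR adjusted p = 0.39), with overlapping libraries and a log2 fold change from -8.78 to -1.61 over the fits without 1 library. Smooth muscle markers (689, 857 and 481 CPM in Fgfr2+ FB against 2080, 3395 and 2372 CPM, 2 of 6 called lower) and Cajal-cell markers (87.6, 129 and 127 CPM against 476, 427 and 505 CPM) parted the same populations. So did pericyte, fibroblast and PDGFRαhi markers, lower in Fgfr2+ FB, and CD81+ and immune markers, higher there, and the part of all these in the result was not tested.

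In the colon, CD34+ fibroblasts (CD81+, CD90+ and Fgfr2+ FB together) differed from PDGFRαhi FB in the same genes as in the SI for Dcn and Ogn. Their mean was higher in Dcn by a log2 fold change of 2.71 (SE 0.33, edgeR adjusted p = 1.6e-06) and lower in Ogn by -1.80 (SE 0.40, edgeR adjusted p = 0.0052), both without overlap of libraries. Lum was higher by 1.504 (SE 0.40, edgeR adjusted p = 0.023), at the very edge of the fold. With it 3 of the 9 members were called, against 3.50% of all genes, and the members' median was 0.17 against 0.06 over all genes. The Lum fold fell under 1.5 with DESeq2 (1.46), RLE scaling (1.46), a stricter filter (1.48), no filter (1.498) and the colon fibroblast libraries alone (1.48). Lum also lost its call without replicate 1 of colon CD81+ FB (1.45), replicate 3 of colon CD90+ FB (1.43), replicate 3 of colon Fgfr2+ FB (1.38) and replicates 1, 2 or 3 of colon PDGFRαhi FB (1.51, 1.31 and 1.72, edgeR adjusted p = 0.11, 0.20 and 0.053). Aspn (0.17, SE 0.38) and Podn (-0.51, SE 0.47) were not called, and Omd (-2.35, SE 0.93, edgeR adjusted p = 0.22) was called only in the fit of these libraries alone (adjusted p = 0.040, over a range of 0.040 to 0.33 in such settings). That fit called 4.61% of the genes it tested. Sums of smooth muscle, PDGFRαhi and Cajal-cell markers were lower in CD34+ FB without overlap, that of CD81+ markers higher, and their part in the result was not tested.

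The CD34+ fibroblasts of the colon were also compared with one another. Between CD81+ FB and CD90+ FB 0 of the 9 members were called by edgeR's quasi-likelihood test, against 0.621% of all genes. At an unadjusted edgeR p below 0.05 stood 3 members, against 1640 of the 17564 genes tested. DESeq2 called 1 member (Omd, adjusted p = 0.021, over a range of 0.021 to 0.46 in such settings), against 2.17% of all genes. Dcn was higher in CD81+ FB by a log2 fold change of 1.22 (SE 0.34, edgeR adjusted p = 0.12), Podn by 1.602 (SE 0.61, 0.36) and Omd by 3.68 (SE 1.38, 0.35), and these and Lum had separate libraries. Between CD81+ FB and Fgfr2+ FB 0 of the 9 members were called by edgeR or DESeq2, against 0.939% of all genes by edgeR and 3.06% by DESeq2. At an unadjusted edgeR p below 0.05 stood 3 members, against 1943 of the 17564 genes tested. Dcn came nearest at 1.297 (SE 0.34, edgeR adjusted p = 0.063), and without replicate 3 of colon CD81+ FB, the lowest of that population, it was called (1.55, edgeR adjusted p = 0.035). Between CD90+ FB and Fgfr2+ FB 0 members were called by edgeR or DESeq2, with 2 at an unadjusted p below 0.05, Prelp (-0.83, SE 0.32) and Podn (-1.29, SE 0.61). There the share of all genes called was 0%, with 570 genes at an unadjusted p below 0.05 and 37 called by DESeq2. The members' medians in these 3 comparisons were 0.26, 0.31 and -0.52, against 0.01, 0.05 and 0.01 over all genes. Fibroblast and CD81+ marker sums were higher in CD81+ FB than in both others without overlap. Cajal-cell markers were lower than in CD90+ FB, and pericyte and PDGFRαhi markers were lower in CD81+ FB and in CD90+ FB than in Fgfr2+ FB, as were smooth muscle markers in CD90+ FB. Immune markers, at most 29.2 CPM, were lowest in CD81+ FB and highest in Fgfr2+ FB, without overlap in any of the 3 comparisons. Endothelial markers were higher in CD81+ FB than in Fgfr2+ FB without overlap. The part of these in the results was not tested.

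Single sulfation genes differed among the same fibroblasts. The shares of all genes called were 1.21% for SI CD34+ FB over SI Fgfr2+ FB, 3.22% over SI PDGFRαhi FB, 2.52% for SI Fgfr2+ FB over SI PDGFRαhi FB, 3.50% for colonic CD34+ FB over colon PDGFRαhi FB, 0.621% for colon CD81+ FB over CD90+ FB, 0.939% over Fgfr2+ FB and 0% for CD90+ FB over Fgfr2+ FB. Of the 5 keratan sulfate genes, Chst1 and Chst2, sulfotransferases that act on keratan sulfate, were both lower in SI CD34+ FB than in SI PDGFRαhi FB (-4.81, SE 0.93, and -3.29, SE 0.56), in SI Fgfr2+ FB (-5.10 and -2.32) and in colonic CD34+ FB than in colon PDGFRαhi FB (-3.77, SE 0.58, and -2.94, SE 0.38). Chst2 stood at 546, 500.2 and 402 CPM in SI PDGFRαhi FB and at 39.0, 44.9 and 64.1 CPM in SI CD34+ FB. Of the 21 chondroitin and dermatan sulfate genes, Chst15 was higher in SI CD34+ FB (3.199) and SI Fgfr2+ FB (3.19) than in SI PDGFRαhi FB, and lower in colon CD81+ FB than in colon CD90+ FB (-2.77) and colon Fgfr2+ FB (-3.32). SI CD34+ FB also exceeded SI PDGFRαhi FB in Csgalnact1 (at least 98.6-fold) and Chst7 (128 times, 95% interval 22.5 to 5093), the other called genes of the list. B4galt1 was higher in SI CD34+ FB than in SI Fgfr2+ FB (1.98), and Chst1 lower in colon CD81+ FB than in colon CD90+ FB (-4.34). Apart from these, no gene of either list was called among the fibroblast populations within a tissue.

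Collagen genes that accompany SLRPs on fibrils were compared in the same way, beside the same shares of all genes. SI CD34+ FB exceeded SI Fgfr2+ FB in 4 of the 16, led by Pcolce2 (6.11), Col1a1 (2.22) and Col3a1 (2.13), and exceeded SI PDGFRαhi FB in 6, led by Pcolce2 (5.53), Col14a1 (4.42) and Col3a1 (3.50), while 2 were lower, Tll2 (620.5 times as high in PDGFRαhi FB, 95% interval 171 to 5129) and Col12a1 (-3.34). SI Fgfr2+ FB exceeded SI PDGFRαhi FB in Col14a1 (3.18) and Lox (1.80) and fell below it in Col12a1 (-2.44) and Tll2. Colonic CD34+ FB exceeded colon PDGFRαhi FB in Col14a1 (5.73) and Pcolce2 (4.90), with Tll2 lower. Col12a1 was lower in colon CD81+ FB than in colon CD90+ FB (-2.08) and colon Fgfr2+ FB (-2.78), where Col14a1 was higher (1.94 and 2.00), with Col6a3 (2.27) higher against CD90+ FB and Pcolce2 (5.44) against Fgfr2+ FB. Of the 12 receptors and ligands, Ccn4 was lower than in PDGFRαhi FB in SI CD34+ FB (-4.12), SI Fgfr2+ FB (-3.74) and colonic CD34+ FB (-3.34), Tgfb2 (2.71 and 2.31) and Igf1r (1.71 and 1.64) were higher in the SI pair and Tgfb3 (2.18) in the colon. Of the 17 other proteoglycans, Gpc3 was higher than in PDGFRαhi FB in the same 3 comparisons (5.36, 3.32 and 3.40), Vcan in SI Fgfr2+ FB (2.02), and lower were Cspg4 in CD34+ FB of the SI (-2.38) and colon (-1.63) and Hspg2 in SI Fgfr2+ FB (-2.35). Cspg4 was lower in colon CD81+ FB than in colon Fgfr2+ FB (-2.55), and of the 7 other SLRP genes Ecm2 was higher in colon CD81+ FB than in colon CD90+ FB (1.98), the only call of that list among fibroblasts.

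Medians of the whole lists stood beside all-gene medians from -0.01 to 0.06. Collagen genes had a median log2 fold change of 0.86 in SI CD34+ FB over SI Fgfr2+ FB, 0.62 over SI PDGFRαhi FB, -0.18 in SI Fgfr2+ FB over SI PDGFRαhi FB and 0.35 in colonic CD34+ FB over colon PDGFRαhi FB, and keratan sulfate genes 0.29, 0.0385, -1.61 and -0.96. In the same order chondroitin and dermatan sulfate genes had 0.0445, 0.0816, 0 (0.0693 with the floor) and 0.20, receptors and ligands 0.0450, 0.37, 0.20 and 0.92, other proteoglycans -0.25, -0.25, 0.23 and -0.21, and other SLRP genes -0.51, 1.04, 0.43 and 0.51 (-0.0166 with the floor). For colon CD81+ FB over CD90+ FB, over Fgfr2+ FB and for CD90+ FB over Fgfr2+ FB, medians were 0.32, 0.63 and -0.00774 for collagen genes (0.44, 0.54 and -0.0253 with the floor), -0.37, -0.71 and 0.11 for keratan sulfate genes and 0.31, 0.54 and 0.21 for chondroitin and dermatan sulfate genes. They were 0.48, 0.76 and 0.0245 for receptors and ligands, 0.13, -0.26 and -0.37 for other proteoglycans and 1.39, 0.42 and -0.52 (-0.75 with the floor) for other SLRP genes.

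The tissue question, SI against colon for the matching population, gave few calls in SLRPs. In pericytes, sorted by 1 gate in both tissues, Dcn was lower in the SI by a log2 fold change of -1.11 (SE 0.34, edgeR adjusted p = 0.047), which missed the fold, and Podn stood at -1.44 (SE 0.61, edgeR adjusted p = 0.15) and Prelp at 0.60 (SE 0.32, edgeR adjusted p = 0.25). With edgeR's quasi-likelihood test 0 of the 9 members were called, against 5.69% of all genes. At an unadjusted edgeR p below 0.05 stood 2 members, against 4236 of the 17564 genes tested. DESeq2 called 0 members, against 13.7% of all genes. The members' median was -0.15 (-0.12 with the floor) against 0 over all genes. The libraries of Podn and Prelp did not overlap between the tissues. Without replicate 3 of SI pericytes, the highest of its population in Dcn and Podn, 2 members were called lower in the SI, Dcn (-1.68, edgeR adjusted p = 0.0034) and Podn (-2.19, edgeR adjusted p = 0.042). Several marker sums moved with tissue in these cells without overlap. Smooth muscle markers were lower in the SI, with 2 of 6 called, and so were CD81+ markers, at 4.29, 46.2 and 56.3 CPM against 245, 231 and 187 CPM in the colon, with 1 of 5 called, and PDGFRαhi markers, at 80.2, 43.2 and 83.0 CPM against 141, 200 and 165 CPM, with 1 of 5 called. Fibroblast and endothelial markers were higher in the SI, and the part of these lists in the result was not tested.

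In PDGFRαhi FB, Aspn was lower in the SI than in the colon by a log2 fold change of -3.07 (SE 0.50, edgeR adjusted p = 0.00051), with all 3 SI libraries below all 3 colonic ones. It was the 1 of 9 members called, against 0.957% of all genes, and the fold was -3.75 without replicate 3 of SI PDGFRαhi FB. The libraries of 5 members were separate between the tissues, Dcn higher in the SI (0.71, SE 0.34, edgeR adjusted p = 0.72) and Aspn, Ogn (-0.78, SE 0.53), Omd (-1.62, SE 1.27) and Podn (-0.76, SE 0.60) lower. How many of all genes had separate libraries is not given here. Prelp stood at 0.90 (SE 0.32, edgeR adjusted p = 0.33), and Lum (-0.06, SE 0.44) and Bgn (0.13, SE 0.26) at values near the members' median of -0.06 and the all-gene median of 0.02. Pericyte markers differed between these populations too, 2 of 6 called higher in the SI with sums of 2676, 3055 and 2853 CPM against 479, 508 and 509.8 CPM, and Higd1b was at 0 in both. CD81+ markers were lower in the SI, at 6.43, 8.13 and 7.01 CPM against 30.5, 34.6 and 29.7 CPM, and PDGFRαhi markers (10485, 11358 and 10719.8 CPM against 6118, 6489 and 6065 CPM) and Cajal-cell markers were higher, all without overlap. The part of these lists in the result was not tested.

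In Fgfr2+ FB most members leaned lower in the SI. Ogn was called, at a log2 fold change of -2.65 (SE 0.56, edgeR adjusted p = 0.0083), as the 1 of 9 members against 1.45% of all genes, and the members' median was -1.33 against -0.02. The call was lost without replicate 1 of colon Fgfr2+ FB (-2.32, edgeR adjusted p = 0.051) and without replicate 1 of SI Fgfr2+ FB (-2.39, edgeR adjusted p = 0.085). Aspn (-1.53, SE 0.48, edgeR adjusted p = 0.12), Lum (-1.33, SE 0.45, 0.16), Dcn (-0.87, SE 0.34, 0.24) and Podn (-1.10, SE 0.60, 0.47) were lower without overlap of libraries and were not called. With the replicate number as a block Aspn was called (-1.64, edgeR adjusted p = 0.013), though the labels do not say that these numbers pair libraries. Pooled Fmod was 130.4 times as high in the colon as in the SI (95% interval 44.3 to 635) and pooled Omd 37.2 times (6.28 to 1506). Over the fits without 1 library the log2 fold change ran from -10.2 to -5.02 for Fmod and from -6.84 to -3.36 for Omd. Fmod and Omd were called by DESeq2 (adjusted p = 0.041 and 0.035) and not by edgeR (0.23 and 0.25), and the adjusted p reached from 0.041 to 0.25 for Fmod and from 0.035 to 0.37 for Omd over the settings other than leaving out a library. DESeq2 called 3 of the 9 members in this comparison, against 4.67% of all genes. Bgn did not differ (0.07, SE 0.26) beyond its error. The 5 markers of CD81+ adventitial fibroblasts summed to 201, 412 and 769 CPM in colon Fgfr2+ FB and to 40.7, 106 and 66.7 CPM in SI Fgfr2+ FB, where Dpp4 was at 0, and 1 of them was called lower in the SI. The 6 pericyte markers summed to 2245, 1874 and 2099.7 CPM in SI Fgfr2+ FB and to 613, 698 and 893 CPM in colon Fgfr2+ FB, with 1 called higher in the SI. Smooth muscle markers (2 of 6 called) and endothelial markers were higher in the SI without overlap and fibroblast and PDGFRαhi markers lower, and the part of all these in the result was not tested.

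SI CD34+ FB were compared with colon CD81+ FB and colon CD90+ FB but not with colon Fgfr2+ FB, the other CD34+ population of the colon. Against colon CD81+ FB, Ogn stood at -1.86 (SE 0.55, edgeR adjusted p = 0.13) with no overlap, Bgn at 0.58 (SE 0.26, 0.47) and Prelp at 0.78 (SE 0.32, 0.41), both with every SI library above every colonic one. With edgeR's quasi-likelihood test 0 of the 9 members were called, against 0.757% of all genes. At an unadjusted edgeR p below 0.05 stood 3 members, against 1672 of the 17564 genes tested. DESeq2 called 1 member, Ogn (-1.83, adjusted p = 0.041), against 2.41% of all genes. Ogn was also called with no filter on low counts (-1.88, edgeR adjusted p = 0.034), over a range of 0.034 to 0.17 in the settings other than leaving out a library. The members' median was -0.34 against -0.02 over all genes. Against colon CD90+ FB the log2 fold change was -1.596 for Ogn (SE 0.54, edgeR adjusted p = 0.47), 1.61 for Podn (SE 0.61, 0.69), 0.88 for Dcn (SE 0.34, 0.70) and 0.85 for Prelp (SE 0.32, 0.69). There 0 of the 9 members were called by edgeR or DESeq2, against 0.353% of all genes by edgeR and 1.06% by DESeq2. At an unadjusted edgeR p below 0.05 stood 6 members, against 796 of the 17564 genes tested. The libraries of 6 members were separate, Dcn, Bgn, Omd, Prelp and Podn higher and Ogn lower. How many of all genes had separate libraries is not given here. In a fit of those 6 libraries alone Ogn (-1.62, edgeR adjusted p = 0.0089) and Podn (1.59, edgeR adjusted p = 0.033) were called, with adjusted p over such settings from 0.0089 to 0.64 and from 0.033 to 0.94. That fit called 3.50% of the genes it tested. The members' median was 0.47 against -0.01 over all genes, and the 2 comparisons share the SI libraries. Pericyte markers summed to 4099, 4307 and 3640.3 CPM in SI CD34+ FB, against 460.4, 321 and 254 CPM in colon CD81+ FB and 308, 384 and 431 CPM in colon CD90+ FB, with 1 of 6 called higher each time and 1 lower against CD81+ FB. The CD81+ markers summed to 217, 546 and 616 CPM in colon CD90+ FB, below SI CD34+ FB, with 1 of 5 called, and were above SI CD34+ FB in colon CD81+ FB. Against CD90+ FB fibroblast markers were higher and Cajal-cell markers lower in the SI, and against CD81+ FB immune markers were higher and endothelial markers lower, all without overlap, and the part of these lists in the results was not tested.

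**Figure D3:**
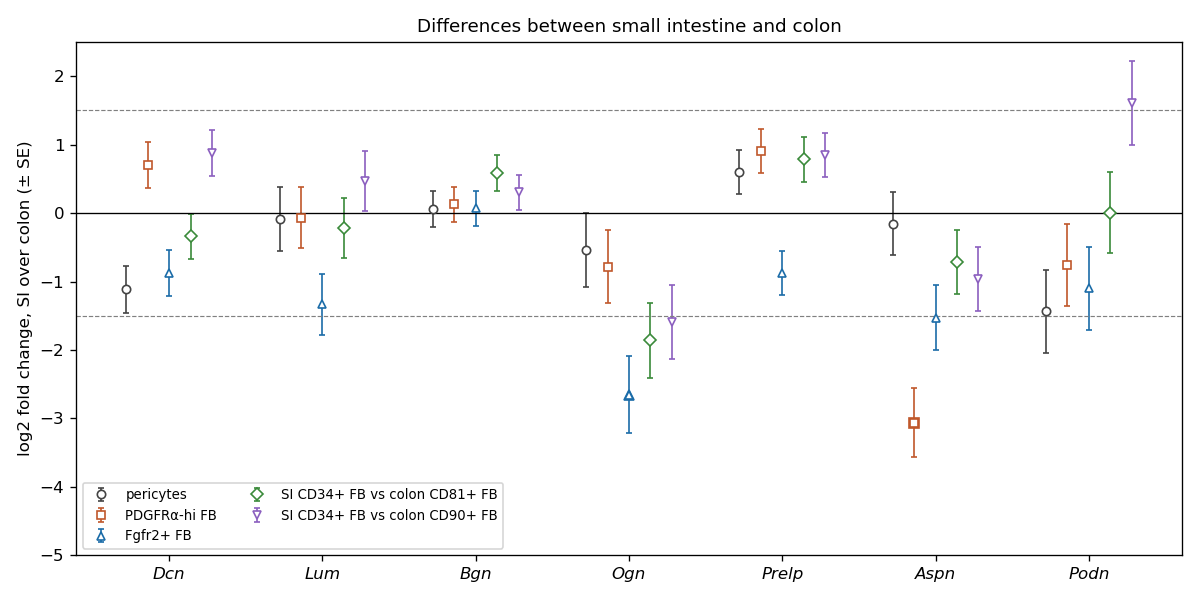
Log2 fold change of SI over colon (points, ± SE) for Dcn, Lum, Bgn, Ogn, Prelp, Aspn and Podn in the 5 tissue comparisons, with dashed lines at the fold of 1.5 either way and thicker markers where a member was called. Aspn in PDGFRαhi FB (-3.07) and Ogn in Fgfr2+ FB (-2.65) were called.

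Whether the tissue difference itself depended on the fibroblast type was tested for PDGFRαhi FB against Fgfr2+ FB. The difference of the 2 tissue effects was 1.77 on the log2 scale for Prelp (SE 0.46, edgeR adjusted p = 0.073), which leaned higher in the SI in PDGFRαhi FB and lower in Fgfr2+ FB, and 1.58 for Dcn (SE 0.47, edgeR adjusted p = 0.17), with the same signs. With edgeR's quasi-likelihood test 0 of the 9 members were called, against 0.660% of all genes. At an unadjusted edgeR p below 0.05 stood 5 members, against 1380 of the 17564 genes tested. DESeq2 called 1 member, Prelp (1.69, adjusted p = 0.027), against 2.11% of all genes. The members' median was 1.58 against 0.08 over all genes. With edgeR, Prelp was called without replicate 1 of colon Fgfr2+ FB (2.03, adjusted p = 0.031) or replicate 3 of SI PDGFRαhi FB (2.06, adjusted p = 0.024), and Dcn in a fit of those libraries alone (1.51, adjusted p = 0.0034). That fit called 1.28% of the genes it tested. Over the settings other than leaving out a library the adjusted p reached from 0.027 to 0.098 for Prelp and from 0.0034 to 0.28 for Dcn. For Ogn (1.87, SE 0.76, edgeR adjusted p = 0.46) and Aspn (-1.54, SE 0.66, edgeR adjusted p = 0.53), each called in 1 of the 2 fibroblast types, a difference between the types was not called.

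In the surrounding lists, calls between the tissues stood beside 5.69% of all genes in pericytes, 0.957% in PDGFRαhi FB, 1.45% in Fgfr2+ FB, 0.757% for SI CD34+ FB over colon CD81+ FB and 0.353% over colon CD90+ FB. A fit of the pericyte libraries alone called 0 of 13369 genes with edgeR, against 1000 with all libraries and 2410 by DESeq2 with all libraries, so none of the calls between pericytes named here was kept in it. Of the 16 collagen genes, SI pericytes were higher than colon pericytes in 4, led by Col12a1 (2.48), Pcolce (2.303) and Col6a1 (2.06), and lower in Lox (-2.01). Lox was lower in the SI also in PDGFRαhi FB (-2.41, with Col3a1 at -2.19 and Col14a1 higher at 1.81) and in Fgfr2+ FB (-2.25, with Col12a1 at -1.91). None was called between SI CD34+ FB and colon CD81+ FB, and against colon CD90+ FB Col6a3 was higher (2.03) and Col12a1 lower (-2.12). Of the 21 chondroitin and dermatan sulfate genes, Dsel (2.26) and Chst15 (2.22) were higher and Csgalnact1 lower in SI pericytes (520.6 times as high in the colon, 95% interval 93.2 to 20589), and Chst15 was higher in SI CD34+ FB than in colon CD81+ FB (3.52, SE 0.69). Of the other lists, SI pericytes were higher in Chst1 (3.03) and lower in Gpc1 (-4.18), Vcan (-2.35) and Optc (-3.64), SI PDGFRαhi FB were higher in Tgfb3 (2.48), SI Fgfr2+ FB lower in Sdc2 (-1.54) and SI CD34+ FB higher in Cspg4 than colon CD81+ FB (2.35). In the test of the tissue difference between fibroblast types, Tgfb3 (3.61), Col12a1 (2.55) and Hspg2 (1.83) were called.

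List medians between the tissues, for pericytes, PDGFRαhi FB, Fgfr2+ FB, SI CD34+ FB over colon CD81+ FB and SI CD34+ FB over colon CD90+ FB in turn, lay beside all-gene medians of 0, 0.02, -0.02, -0.02 and -0.01. Collagen genes had 0.71 (0.81 with the floor), 0.26, -0.72, -0.0869 (-0.13) and 0.54 (0.58), and keratan sulfate genes 0.68, -0.15, -1.55, 0.88 and 0.32. Chondroitin and dermatan sulfate genes had -0.0744 (0.0228 with the floor), 0.301, -0.0202, -0.26 and 0.24, and receptors and ligands -0.0230, 0.36, -0.13, -0.0441 and 0.0494. Other proteoglycans had -0.11, 0.0992, 0.11, 0.16 and 0.44, and other SLRP genes 0 (-0.22 with the floor), 0 (0.12), 0.65, -0.0398 and 0.86. In the test of the tissue difference between fibroblast types the 6 medians, in the order of this paragraph, were 0.16, 1.07, 0.42, 0.15, 0.18 and -0.28, against 0.08 over all genes.

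Across the 10 populations, members fell into loose groups by their mean log2 CPM. Pearson's r was 0.948 between Dcn and Lum (Spearman's rho 0.903), 0.927 between Dcn and Bgn (rho 0.830) and 0.962 between Lum and Bgn (rho 0.685). Ogn went with Omd (r 0.835, rho 0.879) and with Lum (r 0.797, rho 0.648), while Prelp and Aspn ran opposite (r -0.538, rho -0.309). These values describe n = 10 populations, which share tissue, cell type or gate in part, and both pericyte populations are low in most members.

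For each member the 3 genes most like it over the 10 populations were taken by Pearson's r among genes with at least 10 CPM in some population. They were Tcta (0.984), Arsi (0.977) and Cmtm3 (0.977) for Dcn, Dguok (0.989), Htra3 (0.986) and Plekha6 (0.986) for Bgn, and Vim (0.922), Snai2 (0.904) and Postn (0.883) for Aspn. For Lum they were Sh3bp2 (0.993), Fam205a4 (0.993) and Fam205a2 (0.993), of which the last pair share 4098 of 4100 and 3897 of 3897 of their 31-base stretches with other genes and are uncertain. Paics (0.916), Rbm3 (0.900) and Mcrs1 (0.888) were nearest to Fmod, Eva1b (0.964), Rabl6 (0.920) and Bcl2l2 (0.909) to Prelp, and Penk (0.933), Acot6 (0.920) and Pcdhb12 (0.918) to Omd, with Pcdhb12 uncertain as well, since it shares 66.9% of its stretches. Rnf41 (0.972), Hint1 (0.971) and Acvr1 (0.965) were nearest to Ogn, and Cox6a1 (0.934), Ttl (0.924) and Neo1 (0.923) to Podn.

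Most members lie in clusters of the genome, given here for GRCm38. Ecm2, Aspn, Omd and Ogn follow each other on the plus strand of chromosome 13 (Aspn chr13:49544443-49567565, Omd chr13:49582462-49592822, Ogn chr13:49608046-49624501), with 11653, 14896 and 15223 bases between neighbours. Of these, Omd and Ogn shared their highest and lowest populations, colon PDGFRαhi FB and SI pericytes, whereas the mean of Aspn was highest in SMC through replicate 3. Dcn (chr10:97479609-97518143) and Lum (chr10:97565128-97572703), which kept nearly the same order of populations, lie 46984 bases apart on the plus strand, followed by Kera and Epyc. Prelp (chr1:133910304-133921414, minus strand) lies 2304 bases from Optc and 115839 bases from Fmod (chr1:134037254-134048277), Bgn is at chrX:73483602-73495933 (plus strand) and Podn at chr4:108014791-108096445 (minus strand).

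Promoter sequence was matched in the RefSeq set used here for 7 of the 9 members, all but Dcn and Lum. It is shown for Ogn and Omd, neighbours on chromosome 13, and for Aspn and Podn, which both had their highest mean in SMC, Aspn only through replicate 3. Each is 300 bases of GRCm38.p6, 250 before to 50 after the start, read 5′ to 3′ on the gene's strand: chr13:49607765-49608064 (plus) for Ogn, chr13:49582212-49582511 (plus) for Omd, chr13:49544193-49544492 (plus) for Aspn and chr4:108031905-108032204 (minus) for Podn, the first of its 2 promoters in the table. Capitals mark matches on either strand to the TATA box (TATAAA), the CCAAT box, the Sp1 motif (GGGCGG), the TEAD motif (GGAATG), the AP-1 motif (TGANTCA) or the forkhead motif (TGTTTAC).
Ogn: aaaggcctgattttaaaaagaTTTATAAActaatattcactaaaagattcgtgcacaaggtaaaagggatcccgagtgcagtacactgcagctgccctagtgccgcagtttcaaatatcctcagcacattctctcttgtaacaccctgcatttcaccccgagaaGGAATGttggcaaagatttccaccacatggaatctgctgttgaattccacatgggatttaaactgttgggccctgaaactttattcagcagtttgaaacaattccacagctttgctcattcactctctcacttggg
Omd: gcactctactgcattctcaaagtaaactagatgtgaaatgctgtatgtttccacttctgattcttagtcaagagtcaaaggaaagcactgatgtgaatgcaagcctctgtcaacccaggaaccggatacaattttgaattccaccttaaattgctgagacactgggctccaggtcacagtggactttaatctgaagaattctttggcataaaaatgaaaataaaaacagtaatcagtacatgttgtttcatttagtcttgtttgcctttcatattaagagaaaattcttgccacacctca
Aspn: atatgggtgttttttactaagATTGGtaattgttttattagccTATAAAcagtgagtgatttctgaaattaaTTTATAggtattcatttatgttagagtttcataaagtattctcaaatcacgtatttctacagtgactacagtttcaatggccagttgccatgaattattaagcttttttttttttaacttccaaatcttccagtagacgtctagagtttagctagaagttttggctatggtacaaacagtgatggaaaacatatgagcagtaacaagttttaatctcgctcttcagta
Podn: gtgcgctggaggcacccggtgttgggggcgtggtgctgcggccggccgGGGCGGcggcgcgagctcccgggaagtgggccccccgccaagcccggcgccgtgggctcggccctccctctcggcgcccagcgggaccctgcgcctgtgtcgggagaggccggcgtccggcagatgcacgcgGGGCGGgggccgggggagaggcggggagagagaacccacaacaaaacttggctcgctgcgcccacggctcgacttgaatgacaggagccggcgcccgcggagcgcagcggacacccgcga
Ogn held TATAAA at -227 and, overlapping it on the other strand, at -229 from the start, and GGAATG at -86. Aspn held TATAAA at -207 and -178 and CCAAT at -229, Podn held GGGCGG at -202 and -70, and Omd held none of the 6 motifs. Of 32851 promoters of this length, 13.6% held TATAAA, 37.4% CCAAT, 35.7% GGGCGG, 14.7% GGAATG, 7.81% TGANTCA and 3.65% TGTTTAC.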

How the data were processed

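The authors trimmed reads with Trim Galore 0.4.0, checked them with FastQC 0.11.2 and quantified transcripts with kallisto 0.42.5 (mm10/GRCm38), according to the submitters' processing notes. The estimated count deposited by the authors is kallisto's number of reads per transcript, with reads that fit several transcripts split among them, not normalized. The TPM deposited by the authors is that number divided by effective length and scaled to a fixed total per library. The transcript set is not given in the sources used here.

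Of 98492 transcripts, 97204 were matched by identifier to 32386 genes of GENCODE M21, summed and rounded to whole numbers, which kept 97.8% to 99.2% of each library. Testing took the 17564 genes that reached 6 counts in 3 or more libraries. A single model held all 30 libraries, with TMM normalization and the quasi-likelihood test of edgeR 4.0.16 in R 4.3.3, for 16 comparisons. SE is the absolute log2 fold change over the square root of F, and log2 CPM has a prior count of 2. CPM per kb divides each transcript by its deposited effective length before summing to genes. Shares are of the sum over the 9 members. The code was tested on simulated data.

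Members and lists were chosen with earlier results of these data known. The text names every member, the 3 genes with the highest Pearson r with it over the 10 populations among tested genes with a mean of at least 10 CPM in some population, and per list and comparison at most the 3 called genes with the largest fold in each direction. Lists covered other SLRP genes, chondroitin and dermatan sulfate synthesis, keratan sulfate synthesis, collagens and their processing, receptors and ligands, other proteoglycans and markers of cell types. A gene is uncertain where at least 50% of its 31-base stretches occur in other genes, which held for 3 of 36 genes checked (Fam205a4, Fam205a2 and Pcdhb12).

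Alternatives were DESeq2 1.42.0, RLE normalization, no filter, a stricter filter (10 counts in all libraries of some population), length-scaled TPM counts, only the libraries compared, the replicate number as a block, and leaving out each library.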

Additional observations from a re-analysis of the deposited data

How the results depend on the processing

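Of 143 folds of a member in a comparison, most kept their direction and their side of the threshold under each alternative: 132 with DESeq2, 139 with RLE normalization, 136 with no filter, 138 with a filter of 10 counts, 139 with length-scaled TPM counts and 126 with only the libraries compared, where Fmod did not pass the filter in SMC against SI pericytes and SI Fgfr2+ FB against PDGFRαhi FB, nor Omd in SMC against SI pericytes and Fgfr2+ FB between tissues. The fold of Omd between pericytes is not given, as both populations were at the floor. Fmod and Omd held few counts in several populations and replicate 3 of SI Fgfr2+ FB was shallow (2245052), and what depth did to calls was not tested.

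Apart from leaving out libraries, these directions turned, and the cause was not tested. Bgn in the test of the tissue difference between fibroblast types moved to a log2 fold change of -0.0344 with DESeq2, -0.0344 with RLE normalization, -0.0188 with no filter, -0.0444 with the filter of 10 counts, -0.00909 with length-scaled TPM counts and -0.0179 with only the libraries compared. Aspn in SI CD34+ FB over SI Fgfr2+ FB moved in the same order to -0.0285, -0.0284, -0.0185, -0.0685, -0.0151 and -0.0434. Podn in SI CD34+ FB over colon CD81+ FB moved to -0.0118 with no filter, -0.0388 with the filter of 10 counts, -0.0163 with length-scaled TPM counts and -0.0197 with only the libraries compared. Prelp in colon CD81+ FB over colon CD90+ FB moved to -0.16 with length-scaled TPM counts.

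The number of members called moved with DESeq2 to 3 in SI against colon Fgfr2+ FB, 1 in SI CD34+ FB against colon CD81+ FB, 1 in the test of the tissue difference, 1 in colon CD81+ FB against CD90+ FB, 5 in SI fibroblasts against mural cells, 3 in SI CD34+ FB against Fgfr2+ FB, 4 in SI Fgfr2+ FB against PDGFRαhi FB and 2 in colonic CD34+ FB against PDGFRαhi FB. With RLE normalization and with the filter of 10 counts it moved to 5 in SI fibroblasts against mural cells and 2 in colonic CD34+ FB against PDGFRαhi FB. With no filter it moved to 1 in SI CD34+ FB against colon CD81+ FB, 3 in SI fibroblasts against mural cells, 4 in colonic fibroblasts against pericytes and 2 in colonic CD34+ FB against PDGFRαhi FB. With only the libraries compared it moved to 2 in SI CD34+ FB against colon CD90+ FB, 1 in the test of the tissue difference, 3 in SI fibroblasts against mural cells, 2 in SI Fgfr2+ FB against PDGFRαhi FB and 3 in SMC against SI pericytes, where fewer libraries were fitted. With length-scaled TPM counts it did not move.

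The labels share replicate numbers and do not say which libraries share a mouse. Deviations of libraries with the same number had r from -0.0875 to 0.067 in 12 comparisons, yet 23 of 30 libraries correlated best with their own number, a hint from the data that numbers may pair libraries. With the replicate block, 2 members were called in SI against colon Fgfr2+ FB, as Aspn was added (-1.64, edgeR adjusted p = 0.013, range over the alternatives 0.013 to 0.17), no other call changed, and the count of all genes called was 0.73 to 1.05 times as large.

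Leaving out a library in turn moved the number of members called over 0 to 2 in pericytes between tissues, 0 to 1 in colon CD81+ FB against Fgfr2+ FB, 0 to 1 in Fgfr2+ FB between tissues, 0 to 1 in the test of the tissue difference, 4 to 7 in SMC against SI pericytes, 1 to 2 in SI CD34+ FB against SI Fgfr2+ FB, 2 to 4 in SI CD34+ FB against SI PDGFRαhi FB, 2 to 3 in SI Fgfr2+ FB against SI PDGFRαhi FB, 3 to 5 in SI fibroblasts against mural cells, 4 to 5 in colonic fibroblasts against pericytes and 2 to 3 in colonic CD34+ FB against PDGFRαhi FB. Of these refits 1037 values stayed, 14 were stronger, 35 weaker and 42 turned direction. The log2 folds that turned ranged in pericytes between tissues from -0.92 to 0.86 for Lum, -0.0779 to 0.13 for Bgn, -1.07 to 5.07 for Fmod, -1.02 to 0.32 for Ogn and -0.51 to 0.16 for Aspn. Between SI CD34+ FB and colon CD81+ FB they ranged from -0.98 to 1.36 for Fmod and -0.31 to 0.33 for Podn, and against colon CD90+ FB from -0.81 to 0.79 for Fmod. In Fgfr2+ FB between tissues Bgn ranged from -0.0588 to 0.25, and in PDGFRαhi FB Lum from -0.31 to 0.15 and Fmod from -1.93 to 1.81. In the test of the tissue difference Bgn ranged from -0.13 to 0.18 and Podn from -0.0937 to 0.58.

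Within the colon, the folds of CD81+ FB over CD90+ FB ranged from -1.63 to 1.29 for Fmod, -0.10 to 0.24 for Prelp and -0.51 to 0.12 for Aspn, that of CD81+ FB over Fgfr2+ FB from -0.0471 to 0.55 for Podn, and those of CD90+ FB over Fgfr2+ FB from -0.0527 to 0.24 for Dcn, -0.0480 to 0.25 for Bgn and -0.0287 to 0.60 for Ogn. Within the SI they ranged from -0.55 to 2.73 for Fmod and -0.48 to 0.18 for Podn in fibroblasts over mural cells, -0.26 to 0.42 for Aspn in CD34+ FB over Fgfr2+ FB, -1.29 to 2.08 for Fmod and -0.0332 to 0.84 for Omd in CD34+ FB over PDGFRαhi FB, and -0.34 to 0.0734 for Lum in Fgfr2+ FB over PDGFRαhi FB. The cause was not tested.

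Over all genes, DESeq2 called 1.16 to 3.50 times as many, over 1.5 times in 11 comparisons. With no filter 217 against 133 genes were called between SI CD34+ FB and colon CD81+ FB and 167 against 109 between colon CD81+ FB and CD90+ FB, where length-scaled TPM counts gave 67. With only the libraries compared the counts lay from 0 to 8.81 times as high, with 0 against 1000 genes in pericytes between tissues and 546 against 62 between SI CD34+ FB and colon CD90+ FB. The share called higher moved by over 10 points with DESeq2 in colonic fibroblasts over pericytes (54.3% against 41.9%) and colonic CD34+ FB over PDGFRαhi FB (50.2% against 37.1%), and with only the libraries compared for SI CD34+ FB over colon CD81+ FB (46.9% against 65.4%) and colon CD81+ FB over CD90+ FB (82.4% against 44.0%) and Fgfr2+ FB (57.4% against 36.4%).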
